A study of Mus musculus with 11 samples.

Results

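Cells carry a set of proteins that recognise RNA with viral features, such as long paired stretches, uncapped ends or RNA in an endosome, and relay this to interferon genes. The 10 genes described here encode these sensors, the adaptors that carry their signal and an editing enzyme that marks a cell's own paired RNA as self: Ddx58, Ifih1, Dhx58, Mavs, Eif2ak2, Zbp1, Adar, Tlr3, Ticam1 and Tlr7. They were chosen by name, and all 10 were among the 13636 genes of the table. Liver RNA had been sequenced from male C57BL/6J mice, all of which had eaten a Western diet for one month from the age of 8 weeks. For a further 6 weeks 1 group was injected with PBS, which carries no oligomer, 1 with a scramble oligomer and 1 with a mimic of the microRNA miR-30c, and the dose of each oligomer was raised from 2.5 by way of 5.0 to 7.5 mg/kg. There were 4 PBS, 3 scramble and 4 mimic libraries. The labels number the libraries and do not tell whether they stem from different animals, so the spread behind each p-value is that of these libraries and may be technical in part. The sequence and chemistry of the 2 oligomers and the route of injection are not given in the sources used here.

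Cytosolic RNA is read by the helicases RIG-I (Ddx58) and MDA5 (Ifih1), with LGP2 (Dhx58) as a partner without signalling domains of its own, and both signal through MAVS on the mitochondrion. PKR (Eif2ak2) halts translation when it binds paired RNA, ZBP1 binds RNA and DNA in the Z form and can start cell death, and ADAR1 (Adar) edits adenosines in paired RNA and keeps MDA5 and PKR from reading it. In endosomes TLR3 reads paired RNA and signals through TRIF (Ticam1), and TLR7 reads single-stranded RNA. Many of these genes are themselves induced by interferon, so their transcripts are commonly read as part of the interferon response.

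The agent given was a mimic of miR-30c, and its RefSeq sequence is shown because the seed defines which transcripts the microRNA can pair with. Capitals mark the seed, bases 2 to 8 of 23.
mmu-miR-30c-5p: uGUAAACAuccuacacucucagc
The longest annotated 3′ UTR (GENCODE M21) of each of the 10 genes was searched for the 7-base match to that seed, TGTTTAC. It occurred in 1 of the 10, Adar, against 16.0% of 11456 genes with an annotated 3′ UTR. The match lies at base 519 of 2271 of the Adar UTR and is in capitals here, with its flanks.
Adar 3′ UTR: attggtgaaaTGTTTACaagggcag

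The start sites of these genes were also read for the core of the interferon-stimulated response element, a pair of GAAA blocks with any 2 bases between them, on either strand. RefSeq promoter windows (GRCm38.p6) of 300 bases, from 250 before to 50 after the start, were at hand for 7 of the 10 genes, all but Dhx58, Zbp1 and Tlr7. The letters occurred in 3 of the 7, against 3.99% of 27025 genes and 3.44% of 32851 windows. All 3 matches lie within the first bases of the transcript, so the stretch around each is printed to show their shared position, with the match in capitals. Ifih1 holds it at bases 33 to 42 of the transcript, on chr2:62646206-62646233 (minus strand), Ddx58 at bases 3 to 12 on the opposite strand, on chr4:40239804-40239833 (minus strand), and Eif2ak2 at bases 19 to 28, on chr17:78882535-78882564 (minus strand).
Ifih1: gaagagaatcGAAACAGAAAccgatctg
Ddx58: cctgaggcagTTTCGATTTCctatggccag
Eif2ak2: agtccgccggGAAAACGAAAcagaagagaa
A form shorter by its last base, GAAANNGAA, was tried after these sequences had been seen. It was also found in Adar, at bases 34 to 42 of the transcript that starts inside the gene (chr3:89730741-89730767, plus strand), and is held by 9.76% of genes and 8.56% of windows. The same window holds a further match before the start, at -249 to -241, so in Adar the matches are not limited to the first bases of the transcript.
Adar: tcaaggaaacGAAAGTGAActctgggg
The windows of Mavs, Tlr3 and Ticam1 held neither form. A match describes letters in a window, and binding was not measured.

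Values are scaled CPM as deposited, that is, reads per gene set against the size of the library and divided by a further factor for each library, and log2 differences are between group means of log2(scaled CPM + 1), which understates changes of low genes. Between 39705157 and 101380174 reads per library were counted over all genes, as worked out from the step between values. The mimic libraries were the shallowest, at 39705157 to 60399018, against 62848115 to 101380174 in the 7 control libraries. The scaling factors ran from 0.665 to 1.15 in 9 libraries and were 1.57 and 1.65 in mimic replicates 1 and 4, whose values were thus scaled down the most, to column totals of 635097 and 605536. Because these 2 libraries stand apart, the tests of single sensors, adaptors and other named RNA-sensing genes were also computed without both, as were the total counts of calls. The marker lists, the counts per list, the levels per kilobase, the correlations and the likenesses were not. The depth and scaling differ with the group, and their part in the results was tested only through the other scalings given in the closing section. In bulk liver, fewer cells of a type and less RNA per cell cannot be told apart.

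Between the mimic and the scramble group, 7 of the 10 genes were higher and 0 were lower at an adjusted p of 0.05 with limma, where 17.3% of all 13636 genes were higher and 14.7% lower. Against the PBS group the same 7 were higher and 0 lower, with 20.0% of all genes higher and 17.1% lower. These 7 were Ddx58, Ifih1, Dhx58, Zbp1, Adar, Tlr3 and Tlr7, and for each of them all 4 mimic libraries lay above all 7 control libraries, as they did for 14.4% of all genes. The name of the deposited table points to a filter that kept genes at a CPM of 1 in 3 libraries. Tlr7 was at most 0.764 in the 7 control libraries and could pass it only through the mimic group. Its call and its separation were thus favoured by that filter. Eif2ak2, Mavs and Ticam1 were not called. The median log2 difference of the 10 genes was 0.61 against scramble and 0.66 against PBS, and that of all genes was 0.00 in both. The 2 comparisons share the mimic libraries and so are not independent. Between scramble and PBS 0 of the 10 genes were called, among 0.0% of all genes with limma, and 434 genes (3.18%) had an unadjusted p under 0.05. All 10 differences between the 2 control groups lay between -0.12 and 0.13.

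**Figure D1:**
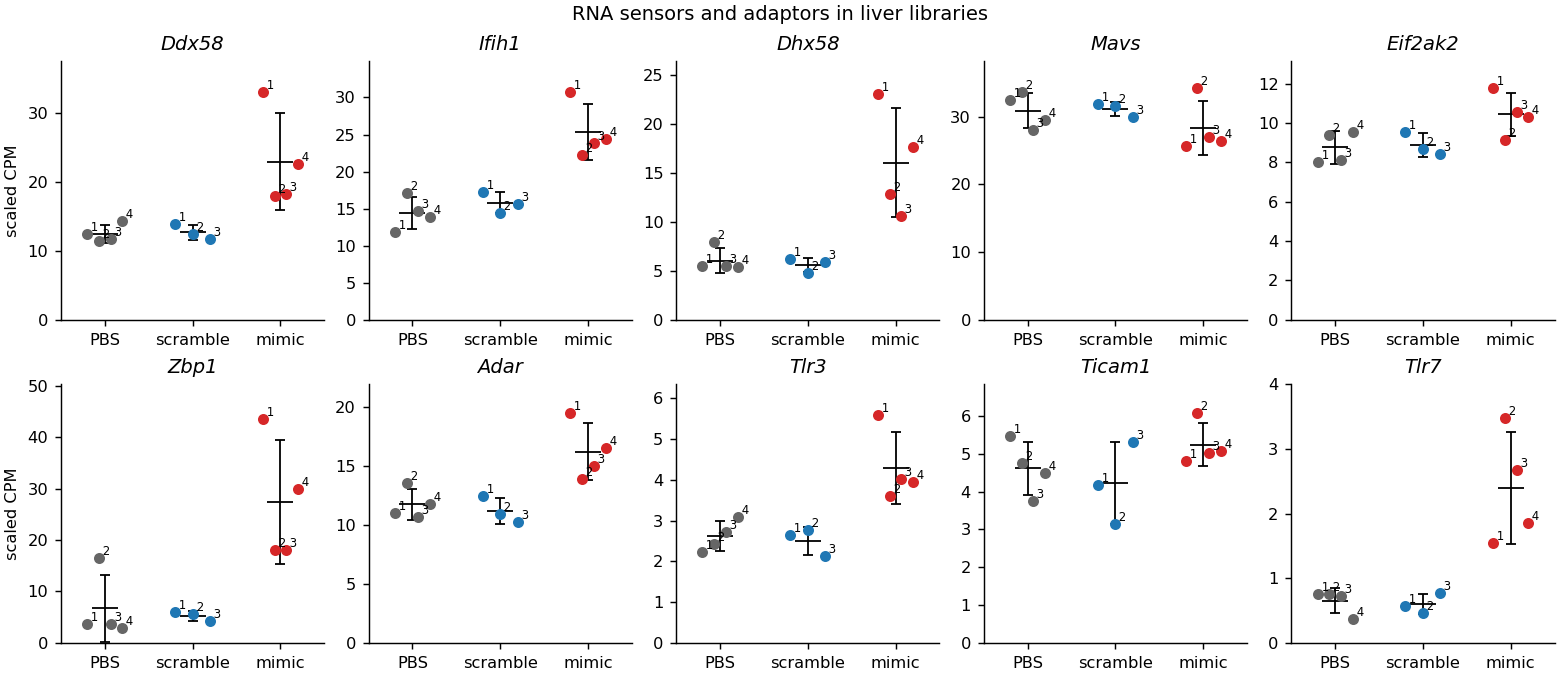
Scaled CPM of the 10 genes (y axis, from 0) in each library (points, numbered by replicate) of the PBS, scramble and mimic groups (x axis), with the group mean (bar) and SD (whiskers). In 7 panels all 4 mimic points lie above all control points, and in those of Mavs, Eif2ak2 and Ticam1 they overlap with them.

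**Figure D2:**
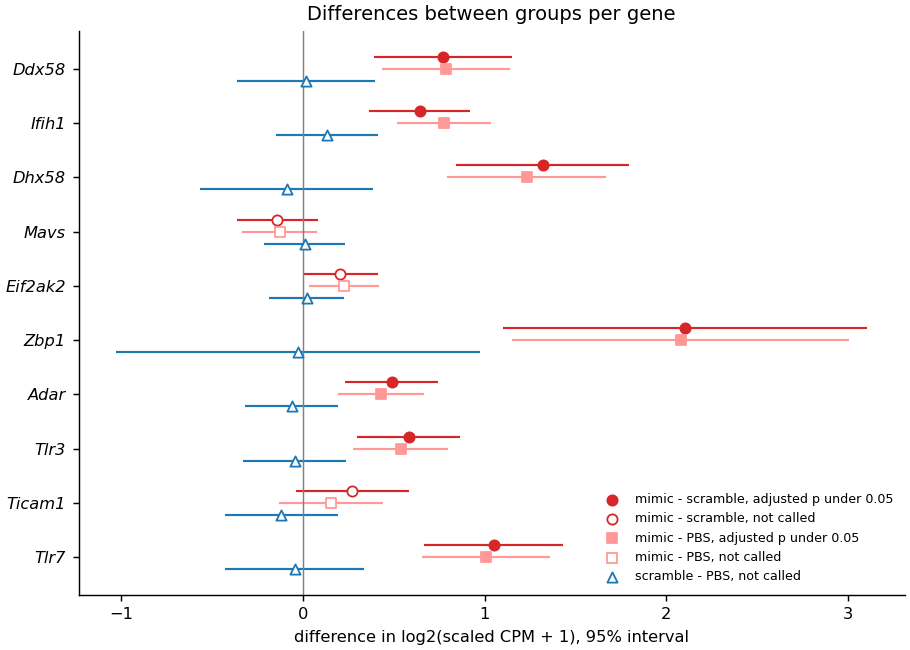
Differences in log2(scaled CPM + 1) between groups for the 10 genes (x axis) with 95% intervals (lines), from 1 limma fit. Filled symbols had an adjusted p under 0.05; the scramble against PBS symbols (triangles) all lie close to 0, while Zbp1 has the widest intervals.

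Among the cytosolic helicases, Ddx58, which encodes RIG-I, the sensor of RNA with uncapped triphosphate ends (chr4:40203773-40239828, minus strand, GRCm38), was at 12.5, 11.5, 11.8 and 14.4 scaled CPM in the 4 PBS libraries. The scramble libraries held 13.9, 12.4 and 11.8, and the mimic libraries 33.1, 18.1, 18.2 and 22.7. All mimic libraries were above all others, and mimic replicate 1 was far above the remaining 3. The means were 12.5 ± 1.30 in PBS (SD, n = 4), 12.7 ± 1.07 in scramble (SD, n = 3) and 23.0 ± 7.05 in mimic (SD, n = 4). Ddx58 was higher in mimic by 0.77 ± 0.17 (SE) on the log2 scale than in scramble, at a limma adjusted p of 0.0068, and by 0.79 ± 0.16 than in PBS, at an adjusted p of 0.0034. Without mimic replicates 1 and 4 the difference from scramble was 0.48, at a limma adjusted p of 0.013.

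Ifih1, which encodes MDA5, the sensor of long paired RNA (chr2:62595798-62646255, minus strand), held 11.9, 17.1, 14.7 and 13.8 scaled CPM in the PBS libraries. It held 17.2, 14.4 and 15.6 in the scramble libraries and 30.8, 22.2, 23.9 and 24.4 in the mimic libraries. The lowest mimic library was above the highest control, and the mimic libraries were closer together than for Ddx58. The log2 difference was 0.64 ± 0.13 (SE) from scramble and 0.78 ± 0.12 from PBS, at limma adjusted p of 0.0035 and 0.00062. Group means were 14.4 ± 2.14, 15.8 ± 1.41 and 25.3 ± 3.76 in PBS, scramble and mimic (SD, n = 4, 3 and 4). Without mimic replicates 1 and 4 Ifih1 was still called against scramble, at 0.52 and a limma adjusted p of 0.025.

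Dhx58, which encodes LGP2, a helicase that modulates MDA5 and RIG-I (chr11:100694884-100704271, minus strand), showed the widest separation of the 3 helicases. It was at 5.46, 7.89, 5.45 and 5.39 scaled CPM in PBS, 6.15, 4.74 and 5.87 in scramble and 23.1, 12.9, 10.6 and 17.7 in mimic. PBS replicate 2 was the highest control, and mimic replicates 1 and 4 were the highest of all. The means were 6.05 ± 1.23, 5.59 ± 0.748 and 16.0 ± 5.54 in PBS, scramble and mimic (SD, n = 4, 3 and 4), a log2 difference of 1.32 ± 0.22 (SE) from scramble and 1.23 ± 0.20 from PBS. The limma adjusted p was 0.0012 and 0.00096. It was 0.95, at an adjusted p of 0.0045 with limma, from scramble without mimic replicates 1 and 4.

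Mavs, the adaptor to which RIG-I and MDA5 dock (chr2:131234063-131248025, plus strand), did not follow its sensors. Its values were 32.5, 33.6, 28.0 and 29.5 scaled CPM in PBS, 31.8, 31.6 and 29.9 in scramble and 25.7, 34.2, 27.0 and 26.4 in mimic. In 3 mimic libraries it was below all controls and in mimic replicate 2 above all. The log2 difference from scramble was -0.14 ± 0.10 (SE), with a 95% interval from -0.36 to 0.08 and a limma adjusted p of 0.31. From PBS it was -0.13, with an interval from -0.33 to 0.08. Without mimic replicate 2 it was called lower than PBS, by 0.22 on the log2 scale at a limma adjusted p of 0.047. With library totals as the only divisor the sign turned, to 0.43 and 0.46, where the median of all genes was 0.49 and 0.51. It was -0.03 and -0.02 without mimic replicates 1 and 4.

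Of the cytosolic effectors, Eif2ak2, which encodes the kinase PKR (chr17:78852564-78882573, minus strand), had small differences. It held 7.99, 9.38, 8.12 and 9.55 scaled CPM in PBS, 9.57, 8.70 and 8.41 in scramble and 11.8, 9.11, 10.6 and 10.3 in mimic. Only mimic replicate 2 fell among the controls. The log2 difference was 0.21 ± 0.09 (SE) from scramble, with a 95% interval from -0.00056 to 0.41 and a limma adjusted p of 0.11. From PBS it was 0.23 ± 0.09, with an interval from 0.04 to 0.42 and an adjusted p of 0.060 with limma. It passed against PBS without PBS replicate 2 (0.26, adjusted p of 0.046 with limma), without mimic replicate 2 (0.28, 0.028) and with library weights (0.28, 0.014).

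Zbp1, the sensor of nucleic acids in the Z form (chr2:173206612-173218923, minus strand), had the widest spread. The PBS libraries held 3.77, 16.5, 3.75 and 2.95 scaled CPM, the scramble libraries 5.92, 5.54 and 4.23 and the mimic libraries 43.5, 18.0, 18.1 and 29.9. PBS replicate 2 was close to the lowest mimic libraries, and far above the other 6 controls. The same PBS library had the highest sum of macrophage and monocyte markers among the controls, at 80.5 against 29.9 to 57.2 in the other 6. It was also the highest control for the summed markers of plasmacytoid dendritic cells (98.0), conventional dendritic cells (6.27) and neutrophils (2.61). For Kupffer cell markers it was not, at 119 against 130 in PBS replicate 1. A link to Zbp1 was not tested. Group means of Zbp1 were 6.75 ± 6.52, 5.23 ± 0.888 and 27.4 ± 12.1 in PBS, scramble and mimic (SD, n = 4, 3 and 4). Zbp1 was higher in mimic by 2.10 ± 0.46 (SE) on the log2 scale than in scramble and by 2.08 ± 0.42 than in PBS, at limma adjusted p of 0.0056 and 0.0034. Without PBS replicate 2 the difference from PBS was 2.57. Without mimic replicates 1 and 4 the difference from scramble was 1.62 and was no longer called, at a limma adjusted p of 0.054.

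Adar, which encodes the editing enzyme ADAR1 (chr3:89715022-89753446, plus strand), rose less. Its values were 10.98, 13.6, 10.6 and 11.8 scaled CPM in PBS, 12.4, 10.9 and 10.3 in scramble and 19.5, 13.9, 15.0 and 16.5 in mimic. The lowest mimic library, replicate 2, was just above PBS replicate 2. The log2 difference was 0.49 ± 0.12 (SE) from scramble and 0.43 ± 0.11 from PBS, at limma adjusted p of 0.0089 and 0.010. Without mimic replicates 1 and 4 it was 0.34 and 0.28 and was called in neither comparison, at limma adjusted p of 0.067 and 0.095. Adar shares 1365 exon bases with Chrnb2 on the opposite strand, and whether the counting used strand is not given in the sources used here. Chrnb2 was between 0.524 and 1.73 scaled CPM in all 11 libraries, lower than Adar in each.

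The endosomal receptor Tlr3 (chr8:45395665-45411080, minus strand) was at 2.23, 2.44, 2.73 and 3.099 scaled CPM in PBS, 2.65, 2.76 and 2.12 in scramble and 5.60, 3.62, 4.02 and 3.94 in mimic. The groups did not overlap, with mimic replicate 1 the highest. Means were 2.62 ± 0.376, 2.51 ± 0.342 and 4.29 ± 0.887 in PBS, scramble and mimic (SD, n = 4, 3 and 4). The log2 difference was 0.58 ± 0.13 (SE) from scramble and 0.54 ± 0.12 from PBS, at limma adjusted p of 0.0062 and 0.0054. It was 0.46 from scramble without mimic replicates 1 and 4, at a limma adjusted p of 0.032.

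Ticam1, which encodes TRIF, the adaptor of TLR3 (chr17:56269319-56276786, minus strand), was not called. It was at 5.46, 4.75, 3.75 and 4.49 scaled CPM in PBS, 4.18, 3.16 and 5.32 in scramble and 4.80, 6.07, 5.01 and 5.06 in mimic. Mimic replicate 2 was the only mimic library above all controls. The log2 difference from scramble was 0.27 ± 0.14 (SE), with a 95% interval from -0.04 to 0.58 and a limma adjusted p of 0.16, and that from PBS was 0.16, with an interval from -0.13 to 0.44. Without scramble replicate 3 it passed against scramble, at 0.42 and a limma adjusted p of 0.0499, and without scramble replicate 2 it was 0.12, at an adjusted p of 0.54. With library totals it was 0.77 and 0.66 and was called in both comparisons, above the median of all genes of 0.49 and 0.51.

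Tlr7, the receptor for single-stranded RNA (chrX:167304929-167330558, minus strand), is known in plasmacytoid dendritic cells, B cells and macrophages. It was the lowest of the 10 genes per length, and it rested on 23 to 230 reads per library. The PBS libraries held 0.754, 0.763, 0.727 and 0.371 scaled CPM, the scramble libraries 0.578, 0.462 and 0.764 and the mimic libraries 1.55, 3.48, 2.67 and 1.86. The lowest mimic library was above all controls, a separation favoured by the filter on CPM, which Tlr7 could pass only through the mimic libraries. Means were 0.654 ± 0.189, 0.602 ± 0.153 and 2.39 ± 0.867 in PBS, scramble and mimic (SD, n = 4, 3 and 4). The log2 difference was 1.05 ± 0.17 (SE) from scramble and 1.01 ± 0.16 from PBS, at limma adjusted p of 0.0013 and 0.00088. With a pseudocount of 0.25 it was 1.59 from scramble, since a pseudocount of 1 is as large as the values themselves. It was 1.34 without mimic replicates 1 and 4.

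Levels between genes were compared per kilobase of annotated exon. In the PBS libraries Mavs stood highest, at 9.23 ± 0.775 scaled CPM per kb (SD, n = 4). Zbp1, Dhx58, Ddx58, Ifih1, Eif2ak2, Ticam1 and Adar followed within a narrow range from 1.91 to 1.45, and neighbours in that order did not differ beyond their SD. Tlr3 at 0.504 and Tlr7 at 0.160 were lowest. In the mimic libraries Mavs was at 8.47 and Zbp1 at 7.76 per kb, which did not differ beyond the SD of Zbp1. Dhx58 at 4.90, Ddx58 at 3.26 and Ifih1 at 3.102 came next, with Tlr3 at 0.825 and Tlr7 at 0.585 still last.

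Within the mimic group the genes did not all peak in the same libraries. Replicate 1 was the highest mimic library for Ddx58, Ifih1, Dhx58, Zbp1, Adar, Tlr3 and Eif2ak2, and replicate 2 or 3 the lowest. For Tlr7, Mavs and Ticam1 replicate 2 was the highest and replicate 1 the lowest. After the group means were subtracted, the 21 pairs of the first 7 genes had correlations of log2 values between 0.216 and 0.879 over the 11 libraries. Those of Tlr7 with the same 7 genes lay between -0.855 and -0.269, and that of Tlr7 with Mavs was 0.688. These are descriptions over 11 points that share their scaling factors and depth. The genes were grouped by their order in the same mimic libraries, so the correlations in part restate that order. Marker lists of cells known for Tlr7 did not share 1 order in these libraries. The summed macrophage and monocyte markers were 100, 173, 122 and 127 in mimic replicates 1 to 4, while the summed markers of plasmacytoid dendritic cells were 162, 122, 125 and 134. Within the macrophage list Lyz2 and Csf1r, at 89.2 and 34.3 in replicate 2, made up most of its sum there. Cd14 and Itgam were highest in replicate 1, at 7.84 and 7.82. Within the plasmacytoid list the interferon-induced gene Bst2 made up most of the sum, at 112, 72.1, 72.3 and 84.2 in replicates 1 to 4. Irf8 and Tcf4 were highest in replicate 2, as Tlr7 was, at 8.16 and 8.54. Ccr9 was highest in replicate 3 and lowest in replicate 2.

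**Figure D3:**
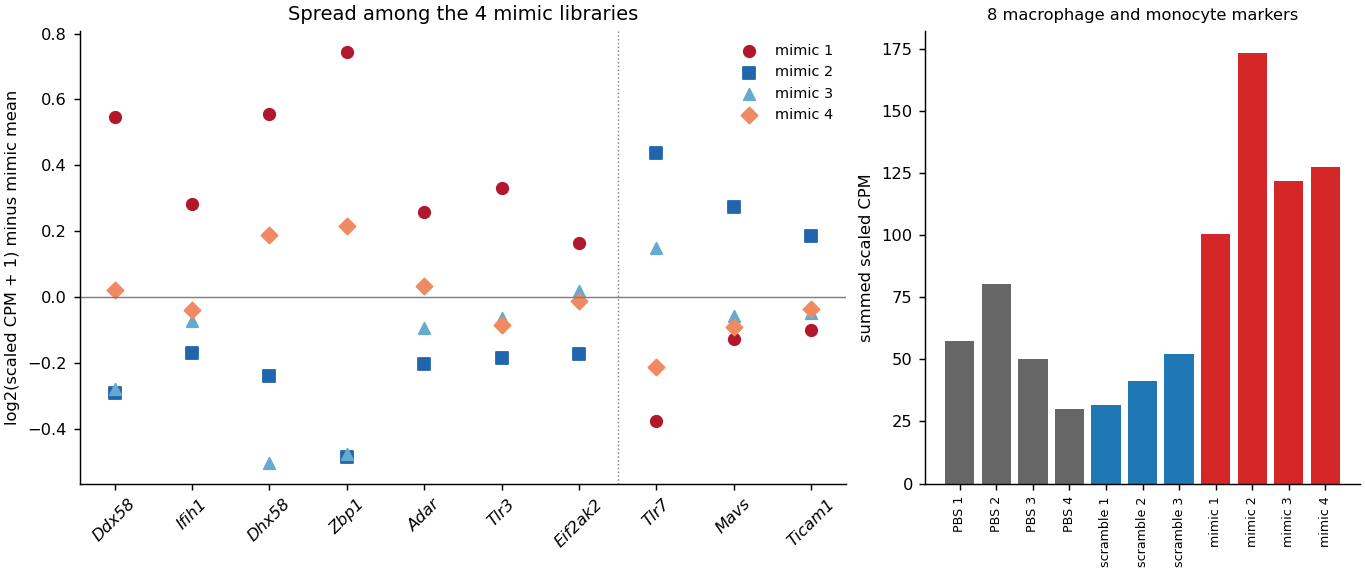
Left, log2(scaled CPM + 1) of each mimic library minus the mean of the 4 mimic libraries (y axis) for the 10 genes (x axis). Replicate 1 is highest for the 7 genes left of the dotted line and lowest for Tlr7, Mavs and Ticam1. Right, the sum of 8 macrophage and monocyte markers (scaled CPM, y axis from 0) in each library, highest in mimic replicate 2.

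Markers of other liver cells differed between the groups as well, and their part in the sensor values was not tested. Of 8 macrophage and monocyte markers 6 were higher and 0 lower in mimic against scramble with limma, and their sum was 29.9 to 80.5 in PBS, 31.8 to 52.1 in scramble and 100 to 173 in mimic. Of 6 Kupffer cell markers 0 were higher and 5 lower, with sums of 68.2 to 130, 62.4 to 121 and 33.2 to 66.5. Of the 7 listed markers of plasmacytoid dendritic cells, a cell known for Tlr7, 4 were measured and 3 of these were higher, among them the interferon-induced gene Bst2, while Siglech was not analysed here. Their sum was 75.6 to 98.0, 78.5 to 83.2 and 122 to 162. All 3 measured neutrophil markers were higher, with sums of 1.14 to 2.61 in the controls and 14.1 to 27.0 in mimic. S100a8 and S100a9 among them were at most 0.371 and 0.638 in the controls, and could pass the filter on CPM only through the mimic libraries. The same holds for the markers Ly6c2, Ccr2, Cd14, Itgax and Acta2, so these higher calls were favoured by the filter. Of 3 measured markers of conventional dendritic cells 1 was higher and 1 lower, of 6 of stellate cells 3 were higher and 1 lower, and of 2 of the bile duct 1 was higher. Of 6 markers of the sinusoidal endothelium 1 was higher and 0 lower against scramble, and 0 were higher and 3 lower against PBS, with median log2 differences of -0.24 and -0.35. The 6 hepatocyte markers, which define the labelled tissue, were called in 0 cases, with sums of 25874 to 32223 in the controls and 20588 to 24615 in mimic. The listed markers of B cells and of T and NK cells were not analysed here.

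Of 93 other genes of RNA sensing in 8 lists, 30 (32.3%) were higher, 11 (11.8%) lower and 52 not called in mimic against scramble, where 17.3% of all genes were higher and 14.7% lower, and 27, 14 and 52 against PBS. Among the genes higher against scramble, Tlr8, Tlr13, Irak3, Ripk3, Casp1 and Tmem173 could not pass the filter on CPM without the mimic libraries. Their calls were favoured by it. Between scramble and PBS 0 were called with limma. The median log2 difference of the 93 was 0.11 against scramble, below the 0.61 of the 10 sensors and adaptors, and 0.00 over all genes.

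In the relay below RIG-I and MDA5, 4 of 17 genes (23.5%) were higher and 2 (11.8%) lower against scramble, near the shares of all genes. Irf7, the transcription factor that induces type I interferon genes and is itself induced by interferon, went from 19.7 ± 1.79 in scramble to 103 ± 19.7 in mimic (SD, n = 3 and 4), by 2.31 ± 0.16 (SE) on the log2 scale at a limma adjusted p of 8.1e-06. Ikbke, a kinase that activates IRF3 and IRF7, rose from 9.07 ± 0.264 to 21.0 ± 5.97, by 1.09. Rnf135, the ubiquitin ligase also called Riplet that modifies RIG-I, rose from 4.38 ± 0.457 to 7.29 ± 0.696, by 0.62. Chuk, a kinase of the NF-kB pathway, fell from 70.1 ± 0.551 to 42.1 ± 3.15, at -0.72, and was at -0.15 and not called with library totals. The list as a whole held genes in both directions, with a median log2 difference of 0.07.

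In the list of endosomal Toll-like receptors, their chaperones and relay, 5 of 18 (27.8%) were higher and 0 lower. Tlr13, a receptor of bacterial ribosomal RNA, rose from 0.620 ± 0.240 to 5.46 ± 0.979, by 1.99 ± 0.13 (SE) on the log2 scale at a limma adjusted p of 5.4e-06, and its 4 mimic libraries, at 4.59 to 6.49, lay far above the controls. Tlr13 was at most 0.769 in PBS and 0.889 in scramble, so it could pass the filter on CPM only through the mimic libraries. The same holds for Tlr8, which was also called higher. Irak4, a kinase below TLR7, rose by 0.49, and Unc93b1, the chaperone that carries TLR3 and TLR7 to endosomes, by 0.47, from 13.8 ± 1.23 to 19.6 ± 2.40. Unc93b1 was not called without scramble replicate 1, at a limma adjusted p of 0.069. Irf7, Irf3, Traf3, Traf6, Tbk1 and Ripk1 belong to both this list and the relay above, so the 2 lists are not independent.

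Of 12 genes that restrain RNA sensing, 3 (25%) were higher and 3 (25%) lower. Irak3, a kinase-like inhibitor of Toll-like receptor signalling, rose from 0.483 ± 0.00711 to 2.30 ± 0.165, by 1.15 ± 0.09 (SE) at a limma adjusted p of 1.1e-05. It was at most 0.814 in PBS and 0.489 in scramble, so it could pass the filter on CPM only through the mimic libraries. Usp18, which removes ISG15 and dampens the type I interferon receptor, rose by 1.39. Rnf125, a ubiquitin ligase that targets RIG-I for degradation, fell by 1.14 on the log2 scale, from 45.9 ± 6.85 to 20.3 ± 2.79, and was at -0.57 and not called with library totals. Pcbp2, which recruits a ligase to MAVS, was at -0.36, and turned to 0.22 with library totals. It was at -0.26 without mimic replicates 1 and 4 and not called, at a limma adjusted p of 0.0505.

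Around PKR, 0 of 11 genes of the arm and of translation control were higher and 1 (9.09%) was lower, both below the shares of all genes. This was Eif2ak1, a related kinase that responds to haem, at -0.19, from 23.1 ± 0.450 to 20.1 ± 0.948, which was not called in 6 of the 11 fits that left out 1 library and turned to 0.37 with library totals. It was at -0.15 without mimic replicates 1 and 4 and not called, at a limma adjusted p of 0.20. Of the 7 partners of ZBP1 in cell death, 4 (57.1%) were higher and 0 lower against scramble. Of these higher genes, Ripk3 and Casp1 could not pass the filter on CPM without the mimic libraries. Both calls, and with them the share of higher genes in this list, were thus favoured by the filter. Mlkl, the pore-forming protein of necroptosis, rose from 1.71 ± 0.244 to 4.95 ± 0.992, by 1.12, and Gsdmd, the pore-forming protein of pyroptosis, from 12.7 ± 0.748 to 25.7 ± 4.44, by 0.95. Ripk3, the kinase between ZBP1 and MLKL, was at 0.35 with a limma adjusted p of 0.045 on values of at most 1.14, and was not called in 7 of the 11 fits that left out 1 library, nor without mimic replicates 1 and 4 (0.31, 0.19). Casp1 was at 0.45, was not called in 6 of those 11 fits, and was not called against PBS, where 3 of the 7 genes were higher and 2 lower.

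Beside Adar, 3 of 11 genes (27.3%) of RNA editing and removal of a cell's own nucleic acids were higher and 0 lower. Trex1, a DNA exonuclease whose exons overlap those of Atrip, rose by 0.53, Samhd1, which breaks down nucleotides, by 0.74, and Adarb2, a relative of Adar without known editing activity, by 0.63. Adarb2 was not called in 4 and Samhd1 in 2 of the 11 fits that left out 1 library. Neither was called against scramble without mimic replicates 1 and 4, where Adarb2 was at 0.39 and Samhd1 at 0.76, at limma adjusted p of 0.18 and 0.086. Against PBS Samhd1 was at 0.52 and was not called, at a limma adjusted p of 0.058. Its highest PBS value, 19.5, was above its highest mimic value, 17.8. Of 11 other helicases and nucleic acid sensors, 4 (36.4%) were higher and 5 (45.5%) lower. Of the higher genes, Tmem173 was at 0.415 to 1.27 in PBS and at most 0.713 in scramble. It could not pass the filter on CPM without the mimic libraries, so its call was favoured by it. Ddx60, an interferon-induced helicase linked to RIG-I, rose from 4.76 ± 0.631 to 9.69 ± 2.77, by 0.87, and Ifi204, of the interferon-induced DNA sensors, from 15.6 ± 1.63 to 27.5 ± 5.72, by 0.76. Ddx3x, a general RNA helicase, fell from 96.8 ± 2.95 to 58.4 ± 6.95, at -0.73, and was at -0.15 and not called with library totals. Dhx33 was at -0.40, and at 0.12 with library totals.

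Of 14 measured genes of interferon receptors and signalling, 8 (57.1%) were higher and 0 lower. Il10rb, a shared subunit of the type III interferon and interleukin 10 receptors, rose from 2.90 ± 0.378 to 6.47 ± 0.408, by 0.94. Ifngr1 and Ifngr2, the subunits of the interferon gamma receptor, rose by 0.64 and 0.39, and Stat2, a transcription factor below the type I receptor, rose by 0.58, from 17.8 ± 1.74 to 27.1 ± 3.26. None of the 4 had a limma adjusted p above 0.0089. The interferon genes listed, Ifnb1, Ifna4, Ifnl2, Ifnl3 and Ifng, were not analysed here.

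**Figure D4:**
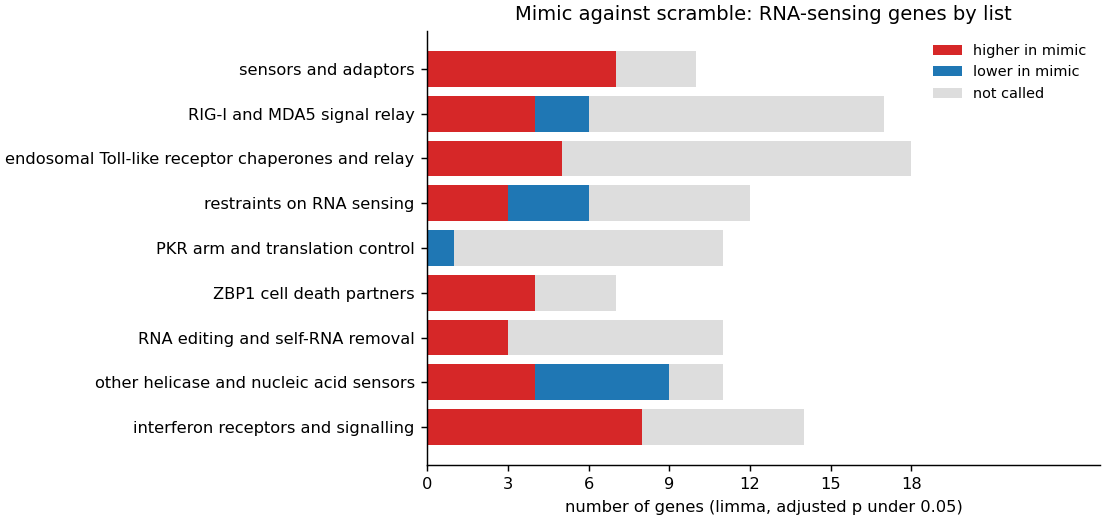
Number of genes (x axis) higher, lower or not called in mimic against scramble (limma, adjusted p under 0.05) for the 10 sensors and adaptors and the 8 other lists of RNA sensing (y axis). The sensors have 7 of 10 higher, and the lists of restraints and of other sensors hold genes in both directions.

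The genes whose pattern over the 11 libraries was most like the mean z-score of the 10 genes were Plcl1 (r of 0.985), Xaf1 (0.984), AI662270 (0.982), Parp14 (0.980) and Oasl2 (0.978). Oasl2, an interferon-induced relative of the oligoadenylate synthetases, went from 2.76 scaled CPM in scramble to 20.6 in mimic, and Parp14, an ADP-ribosyltransferase, from 15.0 to 24.0. With the group means subtracted, the closest were Ang (0.931), 4930511M06Rik (0.927), Tldc1 (0.927), Prrc1 (0.921) and Rsad2 (0.921). Rsad2, which encodes the antiviral enzyme viperin, was at 6.53 in scramble and 10.97 in mimic and was not called, at a limma adjusted p of 0.11. AI662270 had means of 0.552 in PBS and 0.471 in scramble, against 2.10 in mimic. It may thus have passed the filter on CPM only through the mimic libraries, which would favour its likeness. These likenesses are descriptions over 11 libraries that share the difference between groups or their scaling.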

How the data were processed

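Liver RNA of 11 libraries was measured by RNA sequencing with a stranded mRNA kit and paired reads of 48 bases, per the labels' protocols. Per the submitters' processing notes, Bowtie, SAMtools 0.1.19, bedtools 2.17.0 and edgeR 3.8.6 were used with the build mm10. The deposited table gives 1 scaled CPM signal per gene and library for 13636 genes, a CPM further scaled by the authors, with column totals of 605536 to 1504311. Its name points to a filter that kept genes at a CPM of 1 in 3 libraries. A gene below that in the controls could pass only through the mimic group, so a higher call in mimic was favoured for it. The shares over all genes come from the same filtered genes. Each library's values were multiples of 1 step (tolerance 1e-06), which gave the reads counted. Plain CPM had been planned for, and the test was kept for the scaled signal.

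Log2(value + 1) was compared in limma 3.58.1 under R 4.3.3, in 1 fit of 3 group means over the 11 libraries, moderated with a trend on the mean, and p-values were adjusted by Benjamini and Hochberg's method over the 13636 genes, with a threshold of 0.05. The fit was tested on simulated data. Groups came from the sample titles. Gene positions and exon lengths came from GENCODE M21 on GRCm38. The 10 genes, the lists and the alternatives were chosen with earlier results of these data known, and the lists were written from memory. Of each list the up to 4 called genes with the smallest p against scramble are named. The 5 genes most like the 10 had a mean of at least 1. Alternatives covered scaling, pseudocount, low genes, the replicate block, library weights, the trend, fits of 2 groups and left-out libraries. Reads of near-identical or overlapping genes may be split or repeated by the counting, and exons of 4 of the 10 genes overlap those of another annotated gene, as do those of Trex1, Pcbp2, Eif2ak1, Irak3, Irak4, Irf7, Ikbke, Usp18 and Il10rb among the other named genes.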

Additional observations from a re-analysis of the deposited data

Results flagged for a closer look

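In 4 of the 20 groups of 4 libraries tested, 1 library of the group lay far from its other 3, by Dixon's ratio of its gap to the range of the group at the 95% level. Chance gives about 1 such library in 20 groups. PBS replicate 2 was at 7.89 scaled CPM for Dhx58, with 5.39 to 5.46 in the other PBS libraries, and at 16.5 for Zbp1, with 2.95 to 3.77 in the others. PBS replicate 4 was at 0.371 for Tlr7, below the others at 0.727 to 0.763. Mimic replicate 2 was at 34.2 for Mavs, above the others at 25.7 to 27.0.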

How the results depend on the processing

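All 7 called genes kept their call in both comparisons in each of the 11 fits that left out 1 library. The direction against scramble and PBS held for all 10 genes in those fits. With library totals as the divisor, Mavs turned to 0.43 and 0.46 against scramble and PBS, Pcbp2 to 0.22 and 0.24, Eif2ak1 to 0.37 and 0.42 and Dhx33 to 0.12 and 0.19. The median of the 10 genes became 1.12 and 1.19, and the calls over all genes split into 5498 higher and 110 lower, and 6882 and 120. Eif2ak2 was then at 0.74 and 0.78 and Ticam1 at 0.77 and 0.66, all called. With low genes left out below a mean of 5, 2816 and 3273 genes were called, and fewer genes were tested. Against scramble these were 1059 higher and 1757 lower. Of the other RNA-sensing genes 27 were then called against scramble, 16 higher and 11 lower, where 30 and 11 were with low genes kept. Against PBS 14 were higher and 14 lower, where 27 and 14 were. Without mimic replicates 1 and 4 the calls were 2548 and 2894 over all genes and 25 and 26 among the other RNA-sensing genes, and the median of the 10 genes against PBS was 0.46; fewer samples were used. In that fit Zbp1 was at 1.62 and 1.60, called against PBS only, and Adar at 0.34 and 0.28, called in neither, and against PBS Usp18 (0.77), Trex1 (0.29), Adarb2 (0.41), Ifngr2 (0.27), Ripk3 (0.32) and Eif2ak1 (-0.12) were not called. Fitting only the groups compared gave 5 calls between scramble and PBS, against 0, and the cause was not tested.

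Leaving out 1 library gave 2824 (without scramble replicate 1) to 4904 genes called against scramble and 0 to 1 between scramble and PBS (1 without PBS replicate 1). Between scramble and PBS it gave -0.0405 to 0.0832 for Ddx58, -0.152 to 0.0280 for Dhx58, -0.0272 to 0.0601 for Eif2ak2, -0.249 to 0.467 for Zbp1, -0.0979 to 0.0379 for Tlr3, -0.130 to 0.0207 for Tlr7, -0.0320 to 0.0524 for Mavs, -0.266 to 0.0370 for Ticam1 and -0.132 to 0.00526 for Adar, so their signs there are not fixed. Zbp1 was at 0.0019 there with a pseudocount of 0.25 and at 0.28 with library weights.

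The replicate number as a block gave 3808 genes against scramble, 4584 against PBS and the same 7 calls among the 10 genes, and put Mavs at -0.0134 between scramble and PBS. With it Adarb2 (0.62) and Eif2ak1 (-0.19) were not called against scramble, at limma adjusted p of 0.053 and 0.081, and Samhd1 was called against PBS, at 0.52. Deviations of same-numbered libraries correlated at -0.277 to 0.258 and those of other pairs at -0.402 to 0.353, and 3 of 11 libraries correlated best with their own number. These values show no pairing by number, and with so few libraries per group they cannot exclude 1. Count tests on whole reads were planned if whole reads could be had, and were not run. A filter on a mean of at least 5 left out Tlr3, Tlr7 and Ticam1, which rest on low values.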
